A study of Mus musculus with 33 samples.

Results

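The guanylate-binding proteins (GBPs) and immunity-related GTPases (IRGs) are described here through 10 genes, *Gbp2*, *Gbp3*, *Gbp4*, *Gbp5*, *Gbp6*, *Gbp7*, *Gbp8*, *Gbp9*, *Irgm1* and *Igtp*. They were chosen by symbol from the 24421 genes of the count files, and all 10 were present and passed the filter on low counts in every comparison. The question was how these genes differ between 2 resident macrophage (mac) populations, Kupffer cells (KCs) of the liver and alveolar macrophages (AMs) of the lung, and between macs with and without a Cre that deletes the transcription factor gene *Zeb2*.

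Bulk RNA-seq was performed on 33 libraries of sorted mouse macs. CRE- KCs and CRE- AMs came from *Zeb2* fl/fl mice, in which the gene is floxed and no Cre is present. CRE+ KCs came from mice that also carried *Clec4f-cre*, driven from a gene of KCs, and were sorted into Tim4+ and Tim4- cells. CRE+ AMs came from mice with *Itgax-cre*, driven from the CD11c gene, which many myeloid cells express, and were sorted into CD11b- and CD11b+ cells. Each of the 3 KC groups had 6 libraries and each of the 3 AM groups 5. The study used young adult mice of both sexes on a C57Bl/6 background with littermate controls, and the labels name no treatment. Y-linked genes were counted in the libraries numbered 5 and 6 of each KC group and reached at most 4 counts in any other library, so all 15 AM libraries came from females and each KC group held 4 libraries of females and 2 of males. The study describes incomplete deletion, so that CRE+ KCs and AMs can hold cells that keep an intact *Zeb2* allele. Tissue and Cre driver go together, and a difference between KCs and AMs in their response to Cre cannot be told apart from one between the drivers. The labels do not say which libraries came from the same mouse, and p-values measure the spread between these libraries.

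The libraries held between 9837240 and 24332306 reads assigned to genes (median 20683608). *Zeb2* was lower in every CRE+ library than in any CRE- library of its tissue, with means of 283 CPM (counts scaled to a common library size) in CRE- KCs, 175 in Tim4+ and 170 in Tim4- cells, and, for AMs, of 194 in CRE-, 105 in CD11b- and 62.1 in CD11b+ cells. Counts over the whole gene do not isolate the floxed exon. The labels matched their markers, since 6 KC markers summed to 21940 to 24010 CPM in CRE- KCs and 65.5 to 87.1 CPM in CRE- AMs, while 6 AM markers summed to 20.3 to 44.1 CPM in CRE- KCs and 19000 to 29320 CPM in CRE- AMs.

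GBPs are large GTPases of the dynamin superfamily that assemble on the membranes of vacuoles holding parasites or bacteria and on bacteria in the cytosol. IRGs act beside them, and *Irgm1* and *Igtp* (also called *Irgm3*) encode regulatory members that sit on the cell's own membranes and keep the effector IRGs in check. Interferon-γ induces both families, in part through the transcription factor IRF1, and type I interferons induce them too. The GAS and the ISRE are short promoter motifs known from interferon-induced genes, and IRFs bind the ISRE.

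In the GENCODE M21 annotation of GRCm38 the members lie at 3 loci. *Gbp5*, *Gbp7*, *Gbp3* and *Gbp2* follow one another on the plus strand of chromosome 3, with *Gbp2* at chr3:142620602-142638008. *Gbp8*, *Gbp9*, *Gbp4* and *Gbp6* lie on the minus strand of chromosome 5, where the first 3 overlap, with *Gbp8* at chr5:105014150-105139540 and *Gbp6* at chr5:105270702-105293698. *Irgm1* lies on the minus strand at chr11:48861968-48871683 and *Igtp* on the plus strand at chr11:58199556-58207591.

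Promoters from RefSeq on GRCm38.p6, of 250 bases before and 50 bases after a transcript start, were at hand for 6 members, *Gbp2*, *Gbp3*, *Gbp5*, *Gbp7*, *Irgm1* and *Igtp*. All 6 held the letters of an ISRE, GAAANNGAAA or its reverse complement TTTCNNTTTC, which were found in 3.44% of all 32851 promoters. The letters of a GAS, TTCNNNGAA, which are their own reverse complement, were found in *Gbp5*, *Gbp7* and *Igtp*, and in 8.3% of all promoters. Both were found together in 0.454% of all promoters, and no GAS match shared bases with an ISRE match in these 3 genes. *Gbp3* and *Irgm1* each held a pair of overlapping ISRE matches, of which 1 is shown, and a further *Gbp3* promoter from another transcript start held neither motif. The ISRE windows are shown because they are what the promoters at hand have in common, each read 5′ to 3′ on the gene's strand with the matched letters in capitals.
*Gbp2*, chr3:142620594-142620623: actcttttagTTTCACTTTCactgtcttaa
*Gbp3*, chr3:142559989-142560018: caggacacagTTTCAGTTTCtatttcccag
*Gbp5*, chr3:142496759-142496788: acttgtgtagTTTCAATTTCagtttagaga
*Gbp7*, chr3:142530273-142530302: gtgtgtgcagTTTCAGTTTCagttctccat
*Irgm1*, chr11:48871425-48871454, minus strand: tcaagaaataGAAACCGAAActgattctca
*Igtp*, chr11:58199512-58199541: tctaggaactGAAACTGAAAgctgttcggg
The GAS windows of the 3 genes that hold both motifs follow in the same form, with 1 of 2 matches shown for *Gbp5* and *Gbp7*.
*Gbp5*, chr3:142496872-142496901: tggccgttatTTCTCAGAAccaagcacaga
*Gbp7*, chr3:142530239-142530268: aagcagaagcTTCTCAGAAagtcagcacaa
*Igtp*, chr11:58199501-58199530: aactagccatTTCTAGGAActgaaactgaa
In *Igtp* the GAS and ISRE letters lie close together, with first bases at positions -45 and -34 from the transcript start. A match describes the letters only, and binding was not measured.

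All 10 genes were higher in CRE- KCs than in CRE- AMs, and in none did the libraries of the 2 groups overlap. For comparison, 20.9% of the 12145 genes tested were called higher in KCs, a call being an adjusted p under 0.05 together with a log2 fold change beyond 1 in size (quasi-likelihood test of edgeR, adjusted by Benjamini and Hochberg). The median log2 fold change was 2.79 over the members and 0.03 over all genes tested. The share of all genes whose libraries do not overlap between the groups was not counted. All 10 calls held under each of the 20 alternatives, among them one chosen after seeing the data that left out the KC libraries of males, where the log2 fold changes ran from 1.61 for *Gbp7* to 6.87 for *Gbp4*.

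The widest gap was that of *Gbp4*, which had 43.1 CPM in the lowest, 49.8 in the median and 59.6 in the highest CRE- KC library. In CRE- AMs it had 0.85, 0.54, 0.73, 0 and 0 CPM, from 19, 11, 16, 0 and 0 counts. *Gbp4* was thus near the limit of detection in AMs, and its log2 fold change of 6.86 (SE 0.44, adjusted p = 4.31e-09) would shift with the prior count used in the fit. *Gbp3* had 174, 190 and 216 CPM in the lowest, median and highest CRE- KC library. In CRE- AMs it had 2.41, 4.05, 1.37, 6.56 and 2.73 CPM. The log2 fold change of *Gbp3* was 5.83 (SE 0.28, adjusted p = 1.78e-10), a 56.8-fold difference. *Gbp9* differed by 5.20 (SE 0.36, adjusted p = 1.02e-08), from a mean of 105 ± 11.99 CPM (SD, n = 6) in KCs to 2.88 ± 1.57 CPM (SD, n = 5) in AMs. *Gbp5*, which encodes a GBP linked to inflammasome activation, differed by 3.87 (SE 0.25, adjusted p = 4.88e-09), from 40.8 ± 4.46 to 2.79 ± 1.23 CPM.

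The other members differed less. Apart from *Gbp6*, with 2.14 to 5.08 CPM in CRE- AMs, they were expressed there at mean levels from 17.5 CPM for *Igtp* to 28.5 CPM for *Irgm1*. *Gbp8* had 146, 187 and 198 CPM in the lowest, median and highest CRE- KC library, and 23.8, 23.0, 19.4, 23.3 and 17.1 CPM in CRE- AMs. It had the smallest adjusted p of the members (log2 fold change 3.08, SE 0.11, adjusted p = 9.41e-12). Of the IRG genes, *Irgm1* had 137, 159 and 180 CPM in the lowest, median and highest CRE- KC library and 28.3, 33, 27.8, 31.6 and 22.0 CPM in CRE- AMs. *Igtp* had 76.8, 86.8 and 98.6 CPM in KCs and 13.6, 20.3, 16.4, 18.6 and 18.6 CPM in AMs. The 2 genes differed alike, with log2 fold changes of 2.49 (SE 0.11) and 2.33 (SE 0.12), and their groups lay well apart. *Gbp2*, whose protein is recruited to parasite vacuoles, differed by 2.34 (SE 0.14) and *Gbp6* by 2.36 (SE 0.25). *Gbp7* had the smallest difference, 1.67 (SE 0.17, adjusted p = 8.22e-07), with 58.5 to 95.5 CPM in KCs and 19.8 to 33.9 CPM in AMs.

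**Figure D1:**
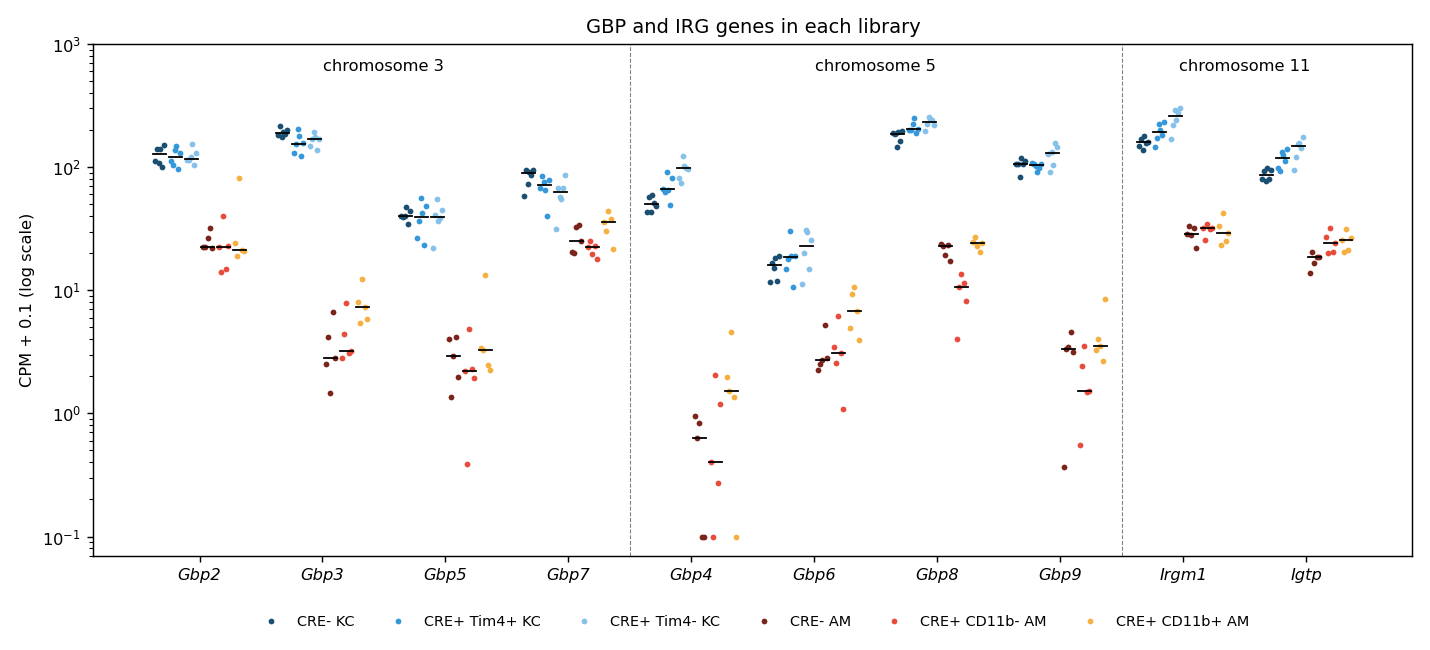
CPM plus 0.1 (log axis) of the 10 genes in each of the 33 libraries, ordered by chromosome and colored by group, with black bars at the group medians. KC libraries, in blue, lie above AM libraries for 8 of the 10 genes in every case, and Gbp3, Gbp4, Gbp5 and Gbp9 reach at most 13.1 CPM in any AM library.

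The separation of the tissues held with the CRE+ groups included. For 8 of 10 genes, each of the 18 KC libraries lay above each of the 15 AM libraries. The exceptions were *Gbp6*, with 17 of 18 KC libraries above the highest AM library, and *Gbp7*, with 16 of 18. The largest AM value of *Gbp3* was 12.2 CPM and the smallest KC value 123 CPM. How many of all genes separate the tissues in this way was not counted.

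Compared per kilobase of the longest transcript, the order of the levels also differed between the tissues. In CRE- KCs the highest were *Gbp8* with 73.0 ± 8.16, *Gbp3* with 71.7 ± 5.45 and *Irgm1* with 70.5 ± 6.80 CPM per kb (SD, n = 6), which do not differ beyond their spread. *Gbp2* with 49.99 ± 8.62 and *Igtp* with 43.2 ± 4.72 CPM per kb came next and were also within their spread. *Gbp4* with 11.1 ± 1.504 and *Gbp6* with 5.90 ± 1.21 CPM per kb were the lowest. The counts of *Gbp6*, and so its rank here and its difference between the tissues, are uncertain. Of the 50-base stretches of its transcript, 90.2% also occur in transcripts of other genes. In CRE- AMs the order was led by *Irgm1* with 12.6 ± 1.90, *Gbp2* with 9.95 ± 1.67, *Gbp8* with 8.67 ± 1.18 and *Igtp* with 8.66 ± 1.28 CPM per kb (SD, n = 5). *Gbp3*, the second in KCs, was the sixth in AMs with 1.28 ± 0.74 CPM per kb.

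**Figure D2:**
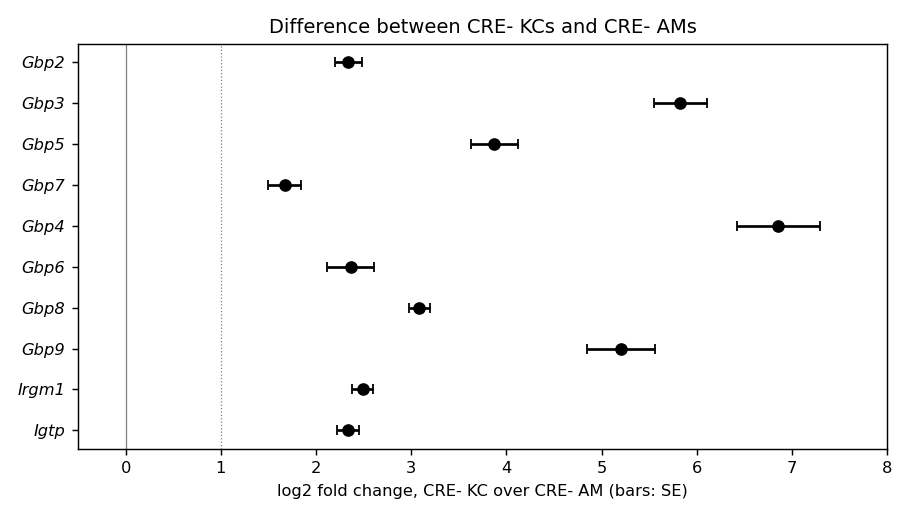
Log2 fold change of CRE- KCs over CRE- AMs for each gene (points) with its SE (bars), with a solid line at 0 and a dotted line at the threshold of 1. All 10 points lie to the right of the threshold, from 1.67 for Gbp7 to 6.86 for Gbp4.

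The other genes of both families followed. Of 16 listed GBP and IRG genes, 12 were tested, of which 10 were higher and 1 lower in CRE- KCs, with a median log2 fold change of 4.34. *Gbp2b* had 250 ± 40.8 CPM in CRE- KCs and at most 1 count in any AM library. The effector IRG gene *Iigp1* had 143 ± 15.8 CPM in CRE- KCs and 0.13 ± 0.23 CPM in CRE- AMs, and *Tgtp2* had 38.0 ± 5.49 and 0.05 ± 0.06 CPM. The single gene that was lower in KCs was *Irgc1* (log2 fold change -7.04).

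Genes of the interferon-γ pathway were also higher in KCs, although *Ifng* itself had at most 9 counts in any library. *Irf1*, which encodes the transcription factor IRF1, was higher by 3.60 (SE 0.11), with 291 ± 38.7 CPM in CRE- KCs and 24.1 ± 2.23 CPM in CRE- AMs. *Ifngr1*, which encodes the ligand-binding receptor chain, was higher by 1.95 (SE 0.07). *Ifngr2*, *Jak1* and *Jak2* were higher by 0.89, 0.76 and 0.58, each with an adjusted p under 0.05 and below the fold threshold. In the list of 11 pathway genes, 5 of 10 tested were higher and 0 lower. Of 17 other interferon-γ targets, 10 of 15 tested were higher, led by *Cxcl9* (5.29), *Cd74* (5.24) and *Nlrc5* (4.40), and 1, *Cd274*, was lower (-1.22). Of 20 type I interferon-stimulated genes all 20 were higher, with a median log2 fold change of 6.46, and *Ifi44* differed most (11.22). *Ifi44* had at most 1 count in any CRE- AM library, so the size of its difference would shift with the prior count used in the fit. Among 7 genes of type I interferon signalling 5 were higher, among them *Irf7* (7.29), *Stat2* (2.60) and *Ifnar2* (2.51).

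Genes that act together with GBPs did not follow the same direction. Among inflammasome and vacuole partners only *Trim21* was called higher in CRE- KCs (1.51), while *Il18* (-2.40), *Il1b* (-1.71) and *Nlrp3* (-1.02) were lower. A further list held genes that encode ATG8 proteins or join them to membranes, a step needed to place IRGs and GBPs on vacuoles. In it *Atg7* (-1.30) and the ATG8 gene *Map1lc3b* (-1.05) were lower and none was called higher.

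Markers of other liver cells were present in the KC libraries. The 8 liver endothelial markers summed to between 614 and 1974 CPM in CRE- KCs and between 4.06 and 6.19 CPM in CRE- AMs, where *Oit3* was at 0. Of 8 hepatocyte markers 5 were at 0 in CRE- AMs, and the sum there of 2956 to 3551 CPM is nearly all from *Trf*. The 10 T and NK cell markers summed to 5.67 to 9.02 CPM in CRE- KCs and 289 to 329 CPM in CRE- AMs, of which *Cd2* made up nearly all. Fewer cells of a type and less RNA per cell cannot be told apart in bulk libraries. The part of other cells in the difference between tissues was not tested.

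No member was called in Tim4+ KCs against CRE- KCs, where 2.31% of the 12500 genes tested were called in either direction, and no member had an adjusted p under 0.05. Over all members the log2 fold changes ran from -0.31 for *Gbp3* (SE 0.11, adjusted p = 0.111) to 0.44 for *Gbp4* (SE 0.14, adjusted p = 0.0642). *Gbp2* had 100, 127 and 152 CPM in the lowest, median and highest CRE- KC library and 95.6, 122 and 149 CPM in Tim4+ KCs. The ranges of *Gbp2* were nearly the same, and its log2 fold change was -0.07 (SE 0.13, adjusted p = 0.853).

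Tim4- KCs differed from CRE- KCs in *Gbp4*, *Gbp8*, *Irgm1* and *Igtp*, which were higher with adjusted p-values under 0.05 but changed by less than the fold threshold. None of the 10 members was called, against 8.82% of all genes tested in either direction. By adjusted p alone 4 of 10 members were higher, against 12.2% of all genes. *Gbp4* had 43.1, 49.8 and 59.6 CPM in the lowest, median and highest CRE- KC library, 49.1, 66.1 and 90.4 CPM in Tim4+ KCs and 74.1, 98.1 and 124 CPM in Tim4- KCs. All 6 Tim4- libraries lay above all 6 CRE- libraries, with Tim4+ libraries between them and overlapping both. The log2 fold change of *Gbp4* in Tim4- KCs was 0.91 (SE 0.14, adjusted p = 5.70e-05).

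Both IRG genes were higher in Tim4- KCs. *Irgm1* had 137, 159 and 180 CPM in the lowest, median and highest CRE- KC library, 145, 192 and 230 CPM in Tim4+ KCs and 169, 260 and 301 CPM in Tim4- KCs. *Igtp* had 76.8, 86.8 and 98.6 CPM, then 92.2, 119 and 141 CPM, then 94.0, 149 and 175 CPM in the same order. Neighbouring groups overlapped for both genes. The lowest Tim4- value of each came from the first Tim4- library, which had the fewest reads assigned to genes (9837240) of all libraries. In Tim4- KCs *Irgm1* was higher by 0.63 (SE 0.13, adjusted p = 0.00111) and *Igtp* by 0.67 (SE 0.13, adjusted p = 8.13e-04), and both kept an adjusted p under 0.05 in all 22 alternatives. *Gbp8* was higher by 0.34 (SE 0.09, adjusted p = 0.00728), from a mean of 179 ± 20.1 to 231 ± 21.7 CPM (SD, n = 6), and its adjusted p was 0.0561 with all 33 libraries in the fit and 0.0517 without the libraries of males.

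By locus, the GBP genes of chromosome 3 and the other members had different signs in Tim4- KCs, a grouping chosen after their values were seen and not tested. The 4 genes of chromosome 3 had log2 fold changes from -0.46 to -0.05 in Tim4- KCs, none with an adjusted p under 0.05. The 4 genes of chromosome 5 ran from 0.25 to 0.91, and the 2 IRG genes of chromosome 11 from 0.63 to 0.67. *Gbp7* had 58.5, 88.7 and 95.5 CPM in the lowest, median and highest CRE- KC library, 39.7, 71.2 and 84.4 CPM in Tim4+ KCs and 31.2, 62.5 and 86.8 CPM in Tim4- KCs. *Gbp5* had 34.3, 40.0 and 47.4 CPM, then 23.3, 39.2 and 55.9 CPM, then 21.8, 39.6 and 54.7 CPM in the same order. The medians of *Gbp5* were thus close together, with a wider spread in both CRE+ groups, and all 3 groups overlapped for both genes. The lowest Tim4- value of each gene came from the first Tim4- library, which had the fewest reads. *Gbp6*, of chromosome 5, had 11.6, 15.8 and 18.9 CPM in CRE- KCs, 10.6, 18.4 and 30.1 CPM in Tim4+ KCs and 11.2, 22.7 and 30.9 CPM in Tim4- KCs, and its groups also overlapped. In Tim4+ KCs the genes of chromosome 3 ran from -0.31 to -0.07 and the others from -0.06 for *Gbp9* to 0.44, so the signs did not divide by locus there. The 2 comparisons share the CRE- KC libraries.

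**Figure D3:**
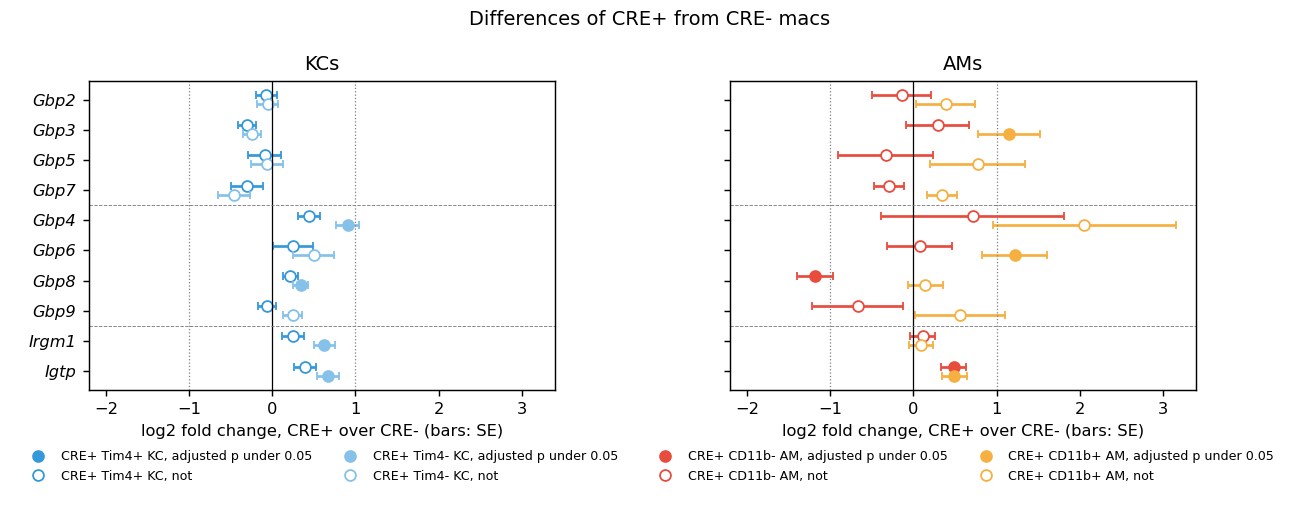
Log2 fold change of each CRE+ group over CRE- cells of the same tissue (points) with its SE (bars), where filled points have an adjusted p under 0.05, dotted lines mark the thresholds of -1 and 1, and dashed lines separate the chromosomes. In KCs all points lie within the thresholds, from -0.46 for Gbp7 to 0.91 for Gbp4, and in AMs Gbp8 of CD11b- cells lies at -1.18 and Gbp3 and Gbp6 of CD11b+ cells at 1.15 and 1.22.

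Tim4- and Tim4+ KCs differed from each other in *Gbp4* by adjusted p, and in *Irgm1* too once the libraries were paired by number. No member was called, against 5.45% of all genes in either direction, and by adjusted p alone 1 of 10 was higher, against 3.84% of all genes. *Gbp4* was higher in Tim4- KCs by 0.47 (SE 0.14, adjusted p = 0.0300), and its adjusted p lay between 0.00957 and 0.424 over 22 alternatives, with 12 of them under 0.05. Without the libraries of males it was 0.43 (adjusted p = 0.137). The other 9 members differed by -0.16 for *Gbp7* to 0.38 for *Irgm1*, the latter with an adjusted p of 0.0632. With the replicate number as a block *Irgm1* was higher by 0.37 with an adjusted p of 0.0218, and it was higher in the Tim4- library of all 6 pairs. Without the libraries of males and without the block it was higher by 0.33 (adjusted p = 0.225).

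Other genes of both families behaved in various ways in CRE+ KCs. *Tgtp1*, an effector IRG gene, was called higher in Tim4+ KCs (log2 fold change 4.38, adjusted p = 1.20e-07) and in Tim4- KCs (5.22, adjusted p = 4.88e-09), from 0.42 ± 0.26 CPM in CRE- KCs to 9.02 ± 3.26 and 16.2 ± 6.15 CPM. *Tgtp2* is a near-identical copy, and reads may be split between the pair. Of 13 listed genes tested *Tgtp1* was the only one called in either comparison. *Gbp2b* varied widely within the CRE+ groups, from 65.3 to 295 CPM in Tim4+ KCs and from 111 to 350 CPM in Tim4- KCs, against 212 to 301 CPM in CRE- KCs.

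Of the interferon-γ pathway no gene was called in CRE+ KCs. In Tim4- KCs *Jak2* was higher by 0.69 (adjusted p = 0.00176), *Ifngr2* higher by 0.29 (adjusted p = 0.00785) and *Jak1* lower (-0.38, adjusted p = 0.0123), each short of the fold threshold. *Irf1* (0.08, adjusted p = 0.542) and *Ifngr1* (0.21, adjusted p = 0.104) did not pass. Among other interferon-γ targets, *Ccl5* (1.24) and *Tap1* (1.03) were called higher in Tim4- KCs and *Serping1* was called lower (-1.70). Of 20 type I interferon-stimulated genes 3 were called higher in Tim4- KCs, namely *Ifi44* (2.07), *Oas3* (1.15) and *Isg15* (1.14), and *Ifi44* was the only one called in Tim4+ KCs (1.02). For comparison, 429 of all 12500 genes tested were called higher in Tim4- KCs and 242 in Tim4+ KCs.

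Marker lists named for other cell types moved with the KC groups, and the study finds some of their genes in KCs themselves. It reports SiglecF, of the AM list, on KCs that deleted *Zeb2*. It also defines Tim4- KCs without *Siglecf* but with *Cx3cr1* and *Ccr2*, of the monocyte list, as putative monocyte-derived KCs heterozygous for *Zeb2*. The labels of the Tim4- libraries name no sort by SiglecF. The liver endothelial markers summed to a median of 1255 CPM in CRE- KCs, 1478 in Tim4+ cells and 449 in Tim4- cells. In the same order the 6 monocyte markers summed to 204, 236 and 619 CPM, the AM markers to 33.8, 257 and 399 CPM, the T and NK cell markers to 7.95, 14.0 and 17.0 CPM and the dendritic cell markers to 21.4, 33.6 and 33.6 CPM. The T and NK cell markers ranged from 1.64 to 63.0 CPM over the Tim4- libraries. In Tim4- against CRE- KCs 4 AM markers, 3 dendritic cell markers, 2 T and NK cell markers and 2 monocyte markers were called higher, and 7 liver endothelial markers lower. The KC markers themselves summed to 23430, 13480 and 10440 CPM. The part of these shifts in the values of *Gbp4*, *Gbp8*, *Irgm1* and *Igtp* was not tested.

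In AMs, *Gbp8* was the only member called lower than in CRE- cells, and only in CD11b- cells. *Gbp2*, *Gbp5*, *Gbp7* and *Gbp9* also had negative log2 fold changes there, from -0.67 to -0.14, none with an adjusted p under 0.05. *Gbp8* had 23.8, 23.0, 19.4, 23.3 and 17.1 CPM in CRE- AMs and 3.95, 10.6, 13.3, 11.3 and 8.08 CPM in CD11b- AMs. All 5 CD11b- libraries lay below all 5 CRE- libraries. The log2 fold change of *Gbp8* was -1.18 (SE 0.22, adjusted p = 4.09e-04), and 2.51% of the 11573 genes tested were called lower in this comparison. Without the first CD11b- library, which had the lowest value, it was -0.98 with an adjusted p of 1.02e-04, short of the fold threshold. Of the 50-base stretches of the *Gbp8* transcript, 21.2% also occur in transcripts of other genes, among them *Gbp11*, which leaves part of its counts uncertain.

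*Gbp8* was not lower in CD11b+ AMs. Their libraries had 24.4, 27.2, 23.0, 20.3 and 24.2 CPM, a log2 fold change from CRE- AMs of 0.14 (SE 0.21, adjusted p = 0.615). CD11b+ AMs were higher in *Gbp8* than CD11b- AMs by 1.32 (SE 0.22, adjusted p = 7.77e-05), and no library of the 2 groups overlapped. This call held under each of 19 alternatives.

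*Igtp* was higher in both CRE+ AM groups by less than the fold threshold. It had 13.6, 20.3, 16.4, 18.6 and 18.6 CPM in CRE- AMs, 26.9, 19.9, 31.8, 20.4 and 24.1 CPM in CD11b- AMs and 25.6, 20.4, 31.4, 21.1 and 26.3 CPM in CD11b+ AMs. The CD11b+ libraries lay above all CRE- libraries, narrowly so for the lowest, whereas CD11b- libraries overlapped with them. In CD11b- AMs the log2 fold change was 0.48 (SE 0.15, adjusted p = 0.0247), and by adjusted p alone it was the only 1 of 10 members that was higher, against 13.3% of all genes. In CD11b+ AMs it was 0.49 (SE 0.15, adjusted p = 0.0130). Both comparisons share the CRE- AM libraries. Without the third CD11b- library the first was 0.37 with an adjusted p of 0.0852, and with library sizes alone in place of TMM factors the second was 0.31 with an adjusted p of 0.0949. *Irgm1*, the other IRG gene, had log2 fold changes of 0.11 (SE 0.15) and 0.09 (SE 0.15) in CD11b- and CD11b+ AMs.

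*Gbp3* and *Gbp6* rose in CD11b+ AMs against CRE- AMs. *Gbp3* had 2.41, 4.05, 1.37, 6.56 and 2.73 CPM in CRE- AMs and 7.86, 5.33, 12.2, 7.16 and 5.79 CPM in CD11b+ AMs. *Gbp6* had 2.14, 2.44, 2.61, 5.08 and 2.73 CPM in CRE- AMs and 4.88, 9.29, 10.6, 6.64 and 3.88 CPM in CD11b+ AMs. In both genes the fourth CRE- library reached into the range of the CD11b+ libraries. The log2 fold changes were 1.15 (SE 0.38, adjusted p = 0.0186) and 1.22 (SE 0.39, adjusted p = 0.0157), and 2 of 10 members called higher compare with 9.57% of all genes. By adjusted p alone 3 members, with *Igtp*, were higher, against 22.8% of all genes. Without the third CRE- library *Gbp3* was at 0.95 and with library sizes alone at 0.97, both short of the fold threshold. Neither call held without the third CD11b+ library, with 0.92 (adjusted p = 0.0658) for *Gbp3* and 1.03 (adjusted p = 0.0513) for *Gbp6*. *Gbp4* had 1.89, 1.42, 4.48, 1.26 and 0 CPM in CD11b+ AMs, which overlap with CRE- AMs, and its log2 fold change of 2.06 (SE 1.10, adjusted p = 0.144) did not pass. The counts of *Gbp6* are uncertain, since 90.2% of the 50-base stretches of its transcript also occur in transcripts of other genes, mainly *Gm43302*.

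Against CD11b- AMs, CD11b+ AMs were higher in *Gbp6* and *Gbp8*. The 2 calls compare with 6.85% of all genes called higher. *Gbp6* was higher by 1.14 (SE 0.39, adjusted p = 0.0268), with an adjusted p up to 0.0812 when a library was left out, the largest being without the third CD11b+ library. *Gbp7*, linked to oxidative defence, was higher by 0.64 (SE 0.18, adjusted p = 0.00899), so that by adjusted p alone 3 of 10 members were higher, against 19.8% of all genes. *Gbp7* had 22.2, 25.2, 19.8, 23.0 and 17.9 CPM in CD11b- AMs and 35.5, 30.1, 44.1, 38.1 and 21.4 CPM in CD11b+ AMs, which overlapped through the fifth CD11b+ library. Without the third library of both CRE+ AM groups, a setting chosen after seeing the data, the adjusted p of *Gbp7* was 0.0622.

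*Gbp9* had 0.27, 3.22, 3.38, 4.51 and 3.03 CPM in CRE- AMs, 0.46, 2.33, 3.45, 1.39 and 1.43 CPM in CD11b- AMs and 3.17, 3.91, 3.44, 2.58 and 8.34 CPM in CD11b+ AMs. All 3 groups overlapped, and its differences of -0.67 (SE 0.55), 0.56 (SE 0.54) and, between the CRE+ groups, 1.23 (SE 0.55, adjusted p = 0.0902) did not pass.

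The libraries numbered 3 of both CRE+ AM groups had the highest values of their groups for most members. The third CD11b+ library was the highest of its group for 8 of 10 members and the third CD11b- library for 9 of 10. These may not be separate observations, since the labels do not say whether the libraries numbered 3 share a mouse. All 5 CD11b+ libraries correlated best, though weakly (r from 0.0517 to 0.0988), with the CD11b- library of their own number. The share of all genes that were highest in these libraries was not counted. These libraries were singled out after the values were seen, and most pairs of members were positively correlated within groups. *Gbp2* had 24.0, 19.0, 80.8, 20.96 and 20.7 CPM in CD11b+ AMs and 22.3, 14.1, 40.1, 14.7 and 23.0 CPM in CD11b- AMs. *Gbp5* had 3.29, 3.15, 13.1, 2.37 and 2.14 CPM in CD11b+ AMs and 2.13, 0.29, 4.71, 2.19 and 1.82 CPM in CD11b- AMs. The CRE- AMs had 22.1 to 31.8 CPM of *Gbp2* and 1.27 to 4.04 CPM of *Gbp5*, so the third library of each CRE+ group lay above all of them and no other CRE+ library did. With both left out, *Gbp8* was at -1.34 in CD11b- AMs (adjusted p = 2.96e-04) and *Gbp3* and *Gbp6* were at 0.92 (adjusted p = 0.0425) and 1.03 (adjusted p = 0.0315) in CD11b+ AMs. *Gbp8* and *Gbp9* were not highest in the third CD11b+ library, nor *Gbp7* in the third CD11b- library.

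Other genes were also higher in these libraries, looked up after the members' values were seen. *Cxcl9*, which encodes an interferon-γ-induced chemokine, had 13.6 CPM in the third CD11b+ library and 0.42 to 2.20 CPM in the other 4, and 13.3 CPM against 0.54 to 3.04 CPM in CD11b- AMs. *Irf1* had 49.8 against 21.1 to 32.1 CPM in CD11b+ AMs and 43.8 against 20.8 to 24.0 CPM in CD11b- AMs. *Ifng* had 0 counts in both. The T and NK cell markers summed to 402 CPM in the third CD11b+ library, below the 412 to 441 CPM of the others, and to 376 CPM in the third CD11b- library, below 383 to 418 CPM. Nearly all of this sum was *Cd2* in CRE- AMs, so it cannot show a small change in the other T and NK cell markers. The neutrophil markers summed to 8162 CPM in the third CD11b+ library, below the 8732 to 10460 CPM of the others, but to 1822 CPM in the third CD11b- library, within the 805 to 2421 CPM of the others. The monocyte markers were lower in both, with 71.6 CPM against 157 to 262 CPM in CD11b+ AMs and 12.5 against 15.4 to 25.3 CPM in CD11b- AMs. The part of such shifts in the members' values was not tested.

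**Figure D4:**
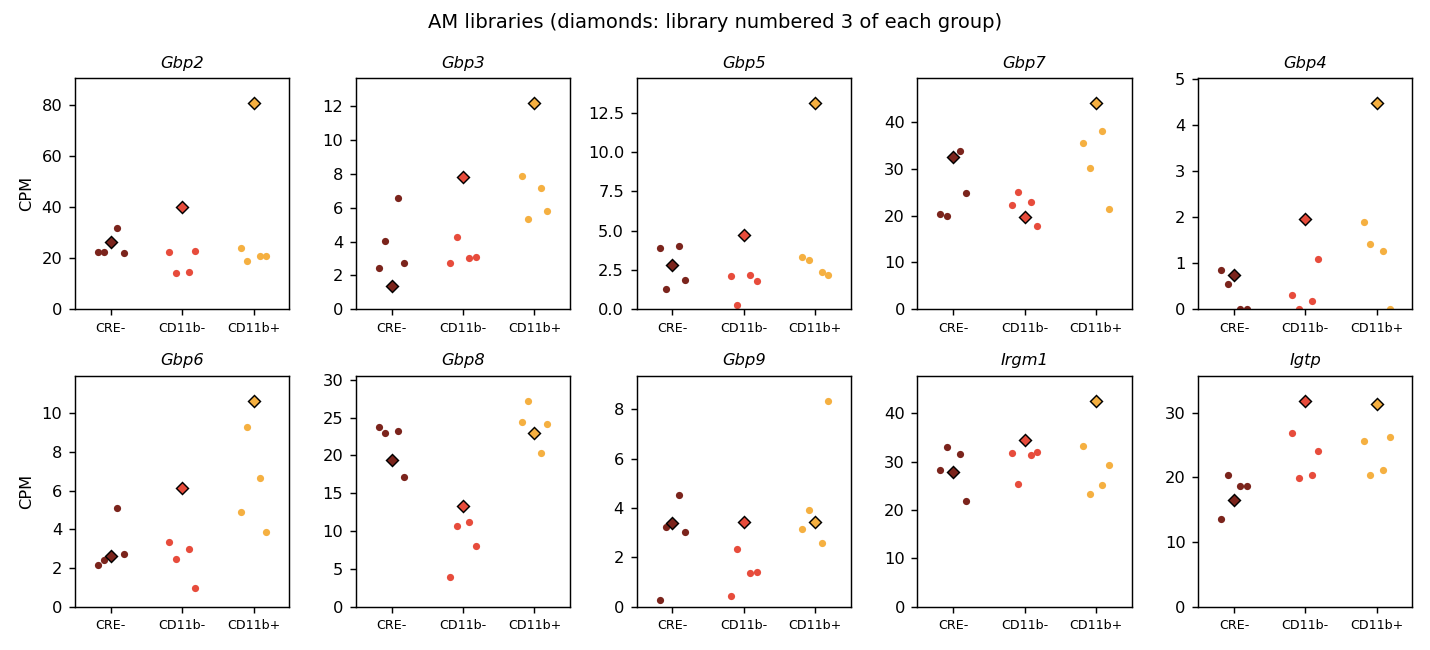
CPM of each gene (linear axes from 0, a scale of its own for each) in the 5 libraries of each AM group, with diamonds for the library numbered 3. Gbp2 and Gbp5 of CD11b+ cells reach 80.8 and 13.1 CPM in that library alone, while Gbp8 of CD11b- cells is below the other 2 groups in all 5 libraries.

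Of 16 other genes of both families 7 were tested in CRE+ AMs, and 1 was called in each CRE+ group. *Iigp1* was called higher in CD11b+ AMs (2.69, adjusted p = 0.0329), from 0.13 ± 0.23 to 0.85 ± 0.62 CPM, where 9.57% of all genes were called higher. *9930111J21Rik1* was called lower in CD11b- AMs, where 2.51% of all genes were.

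Of the interferon-γ pathway, *Socs1*, which encodes a feedback inhibitor, *Socs3* and *Jak2* rose in CD11b+ AMs by 2.23, 1.45 and 1.32. *Jak2* went from 37.9 ± 5.95 to 95.8 ± 10.2 CPM. *Ifngr1* (0.62, adjusted p = 5.17e-07) and *Ifngr2* (0.58, adjusted p = 2.30e-05) were higher by less than the fold threshold, and *Jak1* (-0.01) and *Irf1* (0.39, adjusted p = 0.141) did not pass. None of the 10 pathway genes tested was called in CD11b- AMs. The type I interferon-stimulated genes had a median log2 fold change of 1.42 in CD11b+ AMs, with 11 of 17 called higher, among them *Oasl2* (5.95), *Usp18* (4.16) and *Oas3* (4.06), beside a median of 0.53 over the 10 members. In CD11b- AMs 3 of 17 were called higher, beside 461 of all 11573 genes tested.

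The 6 neutrophil markers summed to a median of 47.8 CPM in CRE- AMs, 1354 in CD11b- cells and 8799 in CD11b+ cells. The monocyte markers summed to 9.33, 19.98 and 184 CPM, with *Vcan* at 0 in both CRE+ groups. Their part in the values of *Gbp3*, *Gbp6* and *Gbp8* was not tested.

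The change with Cre was compared between the tissues as the mean log2 change of both CRE+ KC groups less that of both CRE+ AM groups. No member was called, against 8.15% of the 13294 genes tested in either direction. By adjusted p alone 2 of 10 members differed, against 19.5% of all genes. *Gbp3* differed by -0.99 (SE 0.31, adjusted p = 0.0205), from log2 fold changes of -0.31 and -0.24 in Tim4+ and Tim4- KCs and 0.29 and 1.15 in CD11b- and CD11b+ AMs. *Gbp8* differed by 0.81 (SE 0.19, adjusted p = 0.00184), from 0.22 and 0.34 in KCs and -1.18 and 0.14 in AMs. The difference of *Gbp8* kept an adjusted p under 0.05 in all 41 alternatives and that of *Gbp3* in 37. The difference of *Gbp3* was -0.70 (adjusted p = 0.0640) without the third library of both CRE+ AM groups, -0.94 (adjusted p = 0.0718) without the KC libraries of males, -0.88 (adjusted p = 0.0557) without the first CRE- AM library and -0.78 (adjusted p = 0.0641) without the third CRE- AM library.

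Across all 33 libraries the 10 genes varied together, mostly along the split between KCs and AMs. Pearson's r between log2 CPM values was 0.806 to 0.987 over the 45 pairs of members, with a median of 0.913. After the group means were removed the median r was 0.329, and 43 of 45 pairs were positive. *Irgm1* and *Igtp* had the highest r within groups (0.796), followed by *Gbp2* and *Gbp5* (0.740), and *Gbp4* and *Gbp9* the lowest (-0.369). *Gbp4* was at the floor, with 0 counts, in some AM libraries. Among them was the fifth CD11b+ library, which had the highest *Gbp9* of all AM libraries (8.34 CPM). By mean z-score of the members' deviations, the third CD11b- (1.62) and CD11b+ (1.52) AM libraries lay furthest above their group means. These values describe libraries that share sort, tissue and depth.

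The genes most like the members, by Pearson's r over 33 libraries between log2 CPM and the mean z-score of the members, were *Ifi204* (0.988), *Pml* (0.986), *Irf1* (0.986), *H2-T23* (0.985) and *Il18bp* (0.984), of 13284 genes. With the group means removed, which leaves only variation between libraries of a group, *Tap1* (0.811) and *Zbp1* (0.785) were among the 3 highest.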

How the data were processed

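Bulk RNA-seq counts of 33 libraries were analysed, 6 in each KC group and 5 in each AM group, grouped by the labelled source and genotype. The authors trimmed reads with Trimmomatic (0.35), checked them with FastQC (0.11.4), mapped them to the mouse genome (mm10) with TopHat2 (2.1.0) and deposited raw counts per gene from HTSeq-count. SAMtools (0.1.18) is also named in the submitters' processing notes. The annotation used for counting is not given in the sources used here. The 5 tally rows of each file were left out, of which reads on no gene came to 4.52% to 8.90% and ambiguous reads to 1.19% to 1.39% of all counts in a file, tallies included.

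Counts were tested in R (4.3.3) with edgeR's quasi-likelihood test (4.0.16), with TMM factors, filterByExpr and Benjamini-Hochberg adjustment over all genes tested. The CRE- comparison used the 11 CRE- libraries, comparisons within a tissue its 18 or 15 libraries, and the comparison of changes all 33. A call was an adjusted p under 0.05 together with a log2 fold change beyond 1 in size. CPM values use TMM-scaled library sizes. limma (3.58.1) and DESeq2 (1.42.0) were alternatives, beside other scalings, filters, sample sets, a replicate block, each library left out and, added later, the male KC libraries left out. The procedure was tested on simulated data.

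The members and lists were chosen with earlier results of these data known. All 10 members are named, with at most 3 called genes per list and direction, 6 interferon-γ pathway genes (of which 1 is not reported here), *Zeb2* and the 5 genes most alike. Genes named from the third AM libraries were chosen after their values were seen. Chi-square per gene between libraries of a group was 12.4 to 73.2 over 75 pairs, so none was a repeat deposit. Replicate numbers paired Tim4- with Tim4+ KCs, where every same-number correlation of deviations was between 0.112 and 0.251. That pairing comes from the data, since the labels do not explain the numbers. Intervals of counts cover counting error only.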

Additional observations from a re-analysis of the deposited data

Results flagged for a closer look

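A single library lay far from the others of its group in 5 of 60 groups of values, where chance gives about 1 in 20, or 3. *Gbp2* was at 80.8 CPM in the third CD11b+ AM library and at 19.0 to 24.0 CPM in the other 4, and *Gbp5* at 13.1 CPM in the same library and 2.14 to 3.29 CPM in the others. *Gbp6* was at 5.08 CPM in the fourth CRE- AM library and 2.14 to 2.73 CPM in the others. *Gbp9* was lowest at 82.6 CPM in the third CRE- KC library, with 105 to 118 CPM in the others, and highest at 8.34 CPM in the fifth CD11b+ AM library, with 2.58 to 3.91 CPM in the others.

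The change with Cre differed between KCs and AMs by the interaction term (edgeR, adjusted p under 0.05) for *Gbp3*, by -0.99 on the log2 scale, and for *Gbp8*, by 0.81. Tissue and Cre driver cannot be told apart in these differences.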

How the results depend on the processing

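All 10 members were called in KCs against AMs under every alternative, with or without any single library. No member was called in the 3 KC comparisons when any library was left out, and no call reversed its direction in any comparison. Without the fold threshold the number of members past the test was 4 in Tim4- against CRE- KCs, 1 in Tim4- against Tim4+ KCs, 2 in CD11b- against CRE- AMs and 2 in the comparison of changes. With library sizes alone the number called, fold threshold included, was 1 in CD11b+ against CRE- AMs and 1 in CD11b+ against CD11b- AMs. The comparison of changes gave 1 call (*Gbp3*) with limma-voom, with DESeq2 and with RLE factors. Leaving out the KC libraries of males, chosen after seeing the data, moved no count of calls. Without the third library of both CRE+ AM groups, also chosen after seeing the data, CD11b+ against CRE- AMs gave 1 call. With each library left out in turn the calls ranged from 0 to 1 in CD11b- against CRE- AMs, from 0 to 2 in CD11b+ against CRE- AMs, from 1 to 5 in CD11b+ against CD11b- AMs, the 5 without the third CD11b- library, and from 0 to 1 in the comparison of changes. Causes were not tested beyond what each setting leaves out.

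With the replicate number as a block, 10 members were called in KCs against AMs, 0 in each KC comparison, 1 in CD11b- against CRE- AMs, 2 in CD11b+ against CRE- AMs, 3 in CD11b+ against CD11b- AMs (2 without the block) and 0 in the comparison of changes. In Tim4- against Tim4+ KCs, where the numbers pair the libraries, the blocked difference was 0.47 for *Gbp4* (adjusted p = 0.0248) and 0.37 for *Irgm1* (adjusted p = 0.0218). In the KC groups the numbers also go with sex, since numbers 5 and 6 were males in each. Elsewhere the labels give no meaning to the numbers, although all 5 pairs correlated best with their own number in CD11b+ against CD11b- AMs and against CRE- AMs.

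Depth limits *Gbp4* in AMs, with 0 to 86 counts per library.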
